A study of Mus musculus with 16 samples.

Results

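The unmethylated CpG-dense windows are 5948 autosomal windows of 1000 bp that carried almost no DNA methylation in mESC shCtrl, E14 mouse embryonic stem cells transduced with a control shRNA. They were chosen by the methylation measured in mESC shCtrl: each of its 2 libraries had to cover at least 30 CpGs of the window, with a mean over these CpGs of 5% or less in both. The members were 5948 of 201320 autosomal windows with any CpG in the files, and 82.2% of the 7232 windows that met the CpG minimum. The level of a window is the mean, over its covered CpGs, of the percentage of reads that still showed a cytosine after bisulfite treatment, and it was read where a library covered at least 10 CpGs. Because mESC shCtrl chose the members, its levels are given as a description and enter no test.

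Reduced representation bisulfite sequencing (RRBS) was made of 8 groups with 2 libraries each, all from E14 mESCs of the 129/Ola strain, which were grown in serum and LIF. YP-mESCs and OP-mESCs are the same line at a young and at an old passage, and OP-S33Y #1 and OP-S33Y #2 are 2 clones, each a single clone, that overexpress the S33Y mutant of β-catenin and were also kept for many passages. mESC shCtrl and mESC shβcat #1 are mESCs transduced with a control shRNA or with an shRNA against β-catenin. EB shCtrl and EB shβcat #1 are embryoid bodies at day 8 of differentiation, aggregates grown from such cells without LIF. The labels do not say whether the 2 libraries of a group came from separate cultures. The p-values set a difference in read counts against the spread between libraries, estimated with the help of all windows tested. That spread may be technical. No RNA was measured in these files, and the labelled cell types were not checked against expression markers.

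In mammals most CpGs are methylated, and over evolution methylated CpGs are lost by deamination. CpG islands, the CpG-rich stretches at many gene starts, keep their CpGs and are usually free of methylation, whether or not the gene is active. When pluripotent cells differentiate, DNMT3A and DNMT3B methylate new sites, and most islands are spared while a minority gains methylation. A level of 20% in a pool of cells can be full methylation in 20% of the alleles or partial methylation in all of them, and these cannot be told apart from a mean.

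Stretches of 200 bases from 4 members are printed to show what such DNA looks like, 3 from windows that gained methylation in embryoid bodies and 1, at Ranbp9, from the window with the most CpGs covered. They are the plus strand of mm9, with the CpGs measured in all 4 EB libraries and both mESC shβcat #1 libraries in capitals. Each is the stretch of its window with the most such CpGs outside annotated UTRs and noncoding exons.
Crb2, chr2:37642152-37642351: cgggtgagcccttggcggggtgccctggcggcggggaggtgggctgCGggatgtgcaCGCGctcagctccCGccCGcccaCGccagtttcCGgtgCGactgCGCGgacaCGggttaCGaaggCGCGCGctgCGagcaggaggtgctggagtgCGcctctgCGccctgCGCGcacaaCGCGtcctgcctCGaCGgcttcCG
Sox14, chr9:99776569-99776768: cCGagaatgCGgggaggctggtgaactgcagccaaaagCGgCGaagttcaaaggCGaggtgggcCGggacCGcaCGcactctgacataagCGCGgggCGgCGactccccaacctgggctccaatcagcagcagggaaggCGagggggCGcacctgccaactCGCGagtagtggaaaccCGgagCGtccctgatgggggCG
intergenic, chr15:100883270-100883469: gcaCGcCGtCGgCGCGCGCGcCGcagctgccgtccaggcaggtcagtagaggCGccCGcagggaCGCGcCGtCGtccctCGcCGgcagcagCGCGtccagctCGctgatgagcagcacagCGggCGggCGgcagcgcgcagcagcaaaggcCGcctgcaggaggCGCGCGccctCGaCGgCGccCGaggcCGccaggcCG
Ranbp9, chr13:43576365-43576564: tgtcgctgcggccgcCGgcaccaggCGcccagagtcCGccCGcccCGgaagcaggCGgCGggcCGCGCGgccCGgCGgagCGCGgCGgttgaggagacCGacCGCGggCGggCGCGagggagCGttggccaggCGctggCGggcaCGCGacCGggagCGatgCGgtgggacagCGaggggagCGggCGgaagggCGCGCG

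The Crb2 stretch holds 25 measured CpGs, whose mean was 5.90% and 4.23% in the 2 mESC shβcat #1 libraries, 24.3% and 26.4% in EB shCtrl and 31.5% and 28.2% in EB shβcat #1. The Sox14 stretch, with 19 measured CpGs, was at 2.07% and 3.80% in mESC shβcat #1, 2.50% and 4.33% in EB shCtrl and 16.9% and 18.1% in EB shβcat #1. The stretch on chromosome 15, with 32, was at 2.49% and 2.05%, then 20.5% and 20.3%, then 11.8% and 11.7% in the same 3 groups. The Ranbp9 stretch, with 35, stayed between 2.58% and 3.18% in these 6 libraries. The Crb2 and chromosome 15 stretches were thus raised in both EB groups, the Sox14 stretch in EB shβcat #1 and the Ranbp9 stretch in neither.

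CpGs inside the sequence CCGG read differently in the transduced cells, and this bears on every level below. CCGG is the site of MspI, the enzyme of most RRBS kits. The enzyme used here is not given in the sources used here. Over the members, 16.4% to 20.01% of the covered CpGs of a library lay in a CCGG. Their mean was 0.530% to 0.928% in the 8 libraries without an shRNA, S33Y clones included, and 8.78% to 14.1% in the 8 libraries of shCtrl and shβcat #1 cells, mESCs and EBs alike. All other CpGs of the members were at 0.403% to 0.537% in the first 8 libraries, 0.544% to 0.576% in the 4 transduced mESC libraries, 1.01% and 1.09% in EB shCtrl and 1.43% and 1.50% in EB shβcat #1. The shRNA transduction and library handling cannot be told apart here, and the main counts are given with and without the CpGs in CCGG. At Ranbp9, the 18 CpGs in CCGG of mESC shβcat #1 replicate 1 averaged 12.7% and its other CpGs 0.214%, whereas in YP-mESC replicate 1 the 11 CpGs in CCGG were at 0%. The rule itself was touched: of the 1284 CpG-dense windows over 5% in at least 1 mESC shCtrl library, 750 were at 5% or less in both once CpGs in CCGG were left out.

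**Figure D1:**
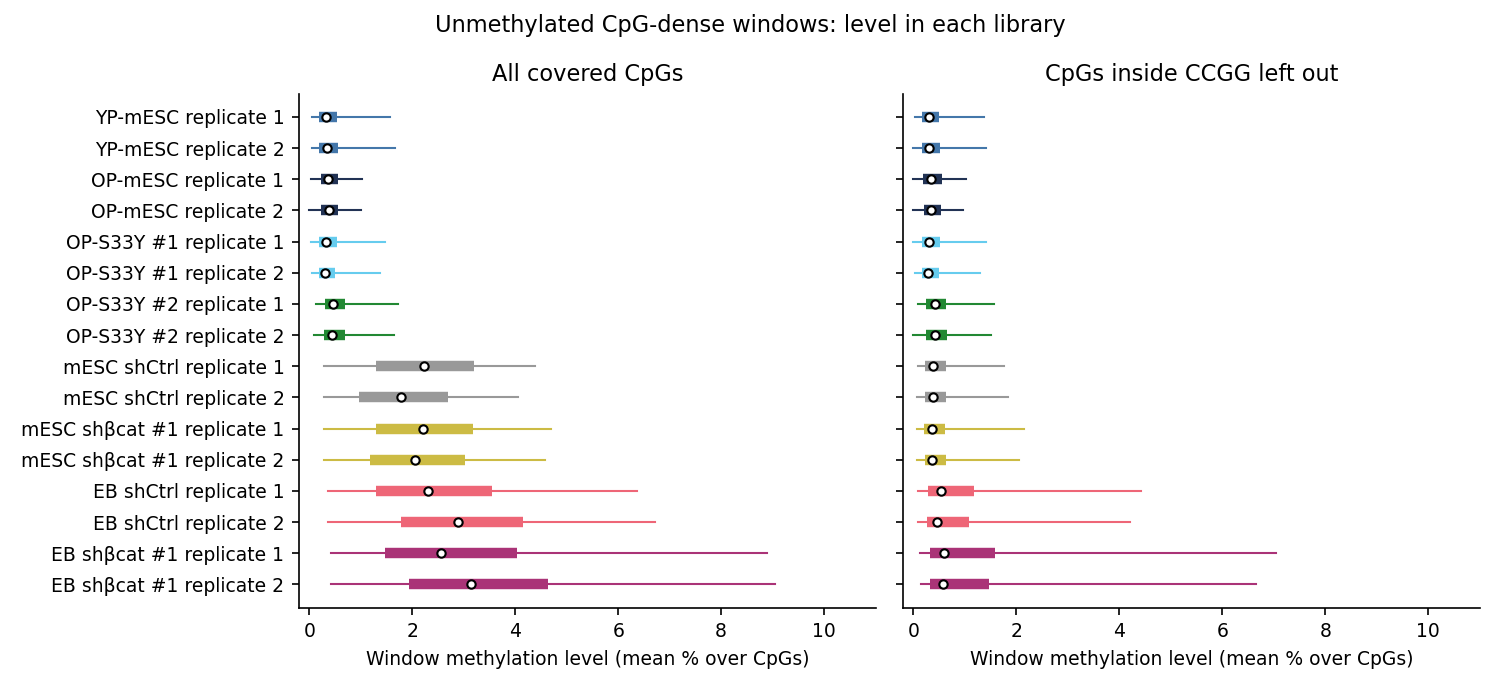
Level of the 5948 windows in each of the 16 libraries, as the mean percentage of methylation over CpGs; the circle is the median, the thick bar runs from the 25th to the 75th percentile and the thin line from the 5th to the 95th. With all CpGs (left) the transduced libraries sit at medians of 1.77% to 3.15% and the others at 0.30% to 0.46%; without CpGs in CCGG (right) all medians lie between 0.29% and 0.60% and the EB libraries keep a long upper tail.

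The members had 7045243 to 15467222 reads on their CpGs in a library, with a median of 24 to 45 reads per CpG. OP-mESC replicate 2 covered the fewest members, 5161 with at least 10 CpGs, and chromosome 13, which holds 221 members, is missing from YP-mESC replicate 2. Libraries of 1 group differed by a median of 0.16 to 0.51 percentage points per member.

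Outside the libraries of the rule, the windows were almost free of methylation in every mESC group. In YP-mESCs 5661 of 5685 members covered in both libraries were at 5% or less in both, in OP-mESCs all 5158, in OP-S33Y #1 5860 of 5871, in OP-S33Y #2 5920 of 5931 and in mESC shβcat #1 5659 of 5948, which became 5917 of 5947 on CpGs outside CCGG. In none of these 5 groups was a member above 10% in both libraries. In a single library, 2 members were above 10% in YP-mESC replicate 2 and 1 was in mESC shβcat #1 replicate 2. The median level was 0.327% ± 0.013 (SD of the 2 libraries' medians, n = 2) in YP-mESCs, 0.373% ± 0.002 in OP-mESCs, 0.309% ± 0.014 in OP-S33Y #1, 0.456% ± 0.009 in OP-S33Y #2 and 2.13% ± 0.11 in mESC shβcat #1. With CpGs in CCGG left out the last fell to 0.358% ± 0.005, within the range of the others. In the embryoid bodies the medians were 2.60% ± 0.41 for EB shCtrl and 2.85% ± 0.42 for EB shβcat #1, and 0.494% ± 0.047 and 0.580% ± 0.022 without CpGs in CCGG.

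A small set of windows was above 10% in embryoid bodies. In EB shCtrl 40 of 5948 members (0.672%) were above 10% in both libraries, and in EB shβcat #1 191 (3.21%). The counts were 22 and 117 without CpGs in CCGG. Only 3 members in each EB group were above 25% in both libraries. Of the 40 windows, 39 were among the 191, which is 97.5% of the first list and 20.4% of the second, and Pearson's r between the 2 groups' levels across the 5948 windows was 0.889, a description over windows that share the assay and its base composition. The 191 windows lay in 187 separate loci on 19 chromosomes, with windows up to 2 kb apart taken as 1. Members at 5% or less in both libraries were 83.0% in EB shCtrl and 76.1% in EB shβcat #1, and 95.4% and 90.7% on CpGs outside CCGG. With all CpGs, 4390 members (73.8%) stayed at 5% or less in all 4 EB libraries, and of 4957 members read in all 16 libraries 3692 stayed at 5% or less in every one and 336 at 1% or less.

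**Figure D2:**
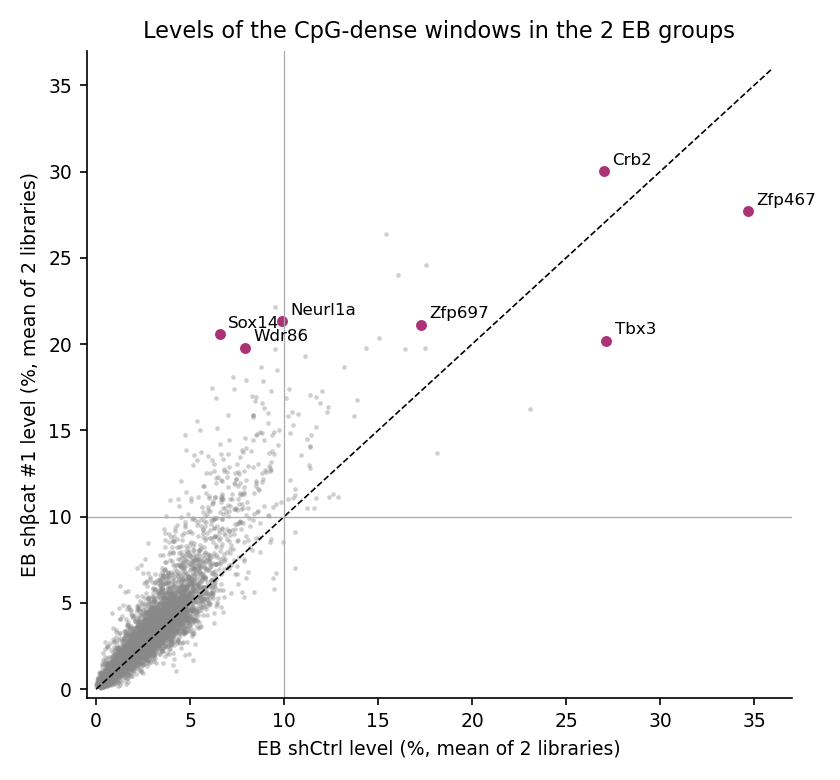
Level of each of the 5948 windows in EB shCtrl (x axis) and EB shβcat #1 (y axis), in percent and as the mean of 2 libraries; the dashed line marks equal levels and the grey lines 10%. Most of the points above 10% on the y axis lie over the dashed line, while Tbx3 and Zfp467 lie under it.

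Most of the windows with the highest EB levels were inside genes or between them, not at gene starts. A coding exon of Zfp467, a zinc finger gene, at chr6:48388000-48388999, reached 29.9% and 39.4% in EB shCtrl and 26.0% and 29.4% in EB shβcat #1. It stood at 3.82% and 3.78% in mESC shβcat #1 and at 3.68% and 4.86% in YP-mESCs. All 39 of its CpGs shared by these 6 transduced libraries were above 10% in both EB groups' means. An exon of Crb2, which encodes a crumbs protein of epithelial polarity, at chr2:37642000-37642999, read 25.4% and 28.6% in EB shCtrl and 30.9% and 29.1% in EB shβcat #1. Crb2 was also the highest member in YP-mESCs by its lower library, at 8.89% and 10.4%, and was at 2.86% and 1.87% in OP-S33Y #1 and 1.28% in the 1 OP-mESC library that covered it.

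The start of Tbx3, a T-box transcription factor that also serves mESC self-renewal, at chr5:120130000-120130999, was at 0.247% to 2.60% in all 12 mESC libraries. It stood at 28.9% and 25.4% in EB shCtrl and 19.5% and 20.9% in EB shβcat #1, so that the EB shCtrl libraries were above both EB shβcat #1 libraries and all 4 were far above the mESCs. An intergenic window at chr15:100883000-100883999, with 91 to 105 CpGs covered in the EB libraries, followed the same order, with 23.7% and 22.5% in EB shCtrl, 17.4% and 15.0% in EB shβcat #1 and 3.47% and 3.55% in mESC shβcat #1. Of its 90 CpGs shared by the 6 libraries, 92.2% were above 10% in EB shCtrl and 67.8% in EB shβcat #1.

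Other intergenic windows were picked for being among the highest in EB shβcat #1, which by itself favours a higher value there than in EB shCtrl. The window at chr16:13448000-13448999 read 15.4% and 15.5% in EB shCtrl and 27.6% and 25.2% in EB shβcat #1, against 4.86% and 6.82% in mESC shβcat #1. At chr4:154524000-154524999 the values were 16.2% and 15.95%, 23.8% and 24.1%, and 3.63% and 3.76% in the same groups. At chr7:52496000-52496999, which lies 2015 bp from the nearest coding gene start, they were 17.2% and 17.8%, 25.8% and 23.4%, and 2.55% and 3.10%. Of these 3, the window on chromosome 16 was called higher in EB shβcat #1 than in EB shCtrl (10.21 points, adjusted p = 0.00069), and those on chromosomes 4 and 7 differed by 6.13 and 6.33 points, under the size of a call. These differences are over the CpGs common to all EB libraries.

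**Figure D3:**
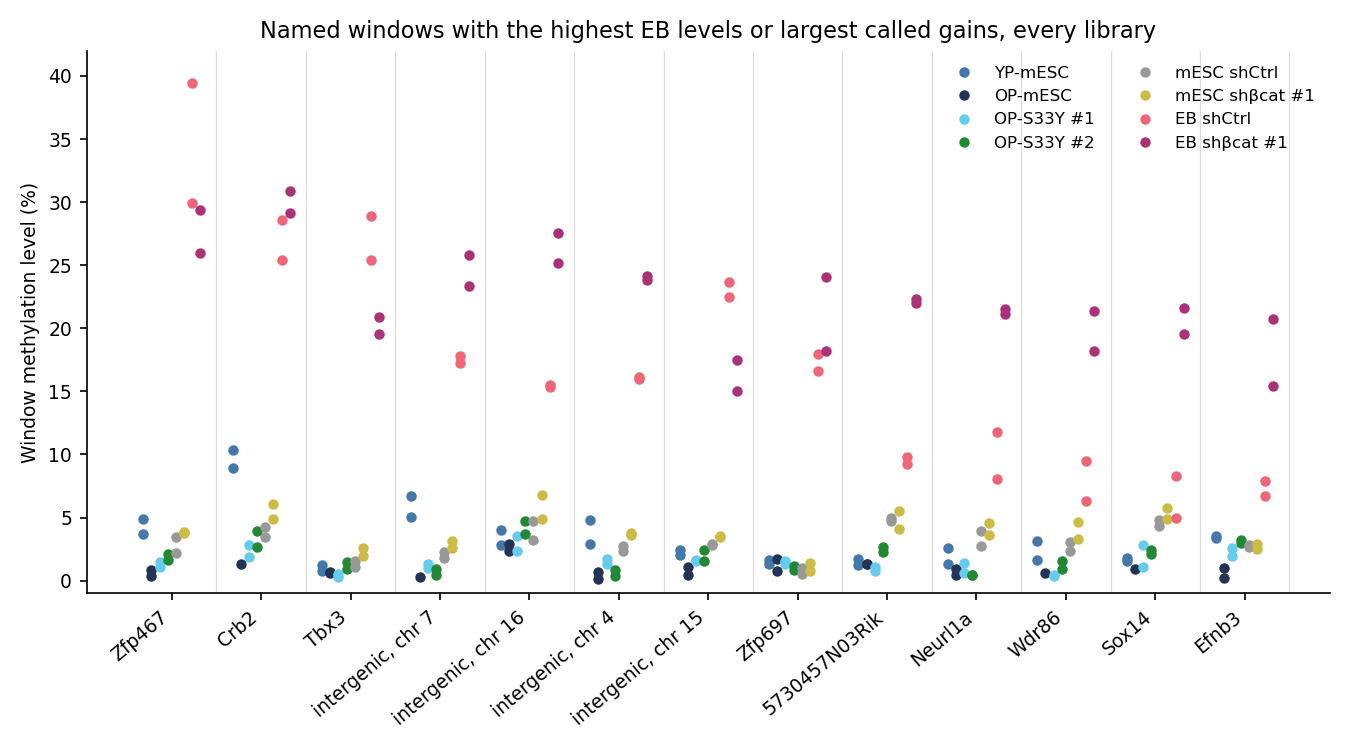
Level in percent of 13 named windows (x axis) in each library, 1 point a library and 1 colour a group. In every window shown, all 4 EB libraries except EB shCtrl replicate 1 at Sox14 lie above the 4 transduced mESC libraries, which stay under 7%.

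EB shβcat #1 was compared with mESC shβcat #1, the same knockdown before and after aggregation, because neither group was used by the rule. Reads of the CpGs common to the 4 libraries were summed per window and tested with a quasi-binomial F test whose overdispersion was moderated with limma, with Benjamini-Hochberg adjustment over all autosomal windows tested. Calls needed an adjusted p under 0.05 and, in the level over these CpGs, more than 10 percentage points between the groups. Of 5948 members 85 (1.43%) were called higher and 0 lower, against 17.6% higher and 0.522% lower among all 18762 windows. A member below 10% cannot fall by 10 points, and 0 members were above that in mESC shβcat #1, so the absence of lower calls says nothing about losses. At an adjusted p under 0.05 with no minimum size, 1451 members were higher and 0 lower, where 37% and 2.71% of all windows were. The median difference was 0.44 points over members and 0.92 over all windows. With CpGs in CCGG left out 74 members were called higher, 73 of them among the 85, and the median difference of the members was 0.24 points.

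The largest called gain was that of Crb2, of 24.82 points (adjusted p = 2.2e-08, as are all adjusted p-values here from the limma-moderated fit), and the next was that of Zfp467, of 23.81 points (adjusted p = 5.3e-10). The intergenic windows on chromosomes 7 and 4 named above gained 21.97 and 21.19 points (adjusted p = 3.6e-09 and 1.1e-09). An exon of Zfp697, another zinc finger gene, at chr3:98232000-98232999, rose by 21.79 points (adjusted p = 3.9e-09), from 0.797% and 1.40% in mESC shβcat #1 to 18.2% and 24.1% in EB shβcat #1, and it was at 16.6% and 17.96% in EB shCtrl. Tbx3 rose by 17.20 points (adjusted p = 2.6e-08). The 5 largest gains were all outside gene starts. Gene starts were 4655 of the members and held 33 of the 85 calls.

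EB shβcat #1 was compared with EB shCtrl, embryoid bodies that differ in the shRNA. The paper reports that cells with shRNAs against β-catenin did not differentiate properly and that their EBs began to disaggregate. The knockdown and the state of the EBs cannot be told apart here. This comparison and the one with mESC shβcat #1 share the EB shβcat #1 libraries. Of 5948 members 10 (0.168%) were called higher in EB shβcat #1 and 0 lower, against 2.83% higher and 0.29% lower among 18256 windows, and 53 members were high enough in EB shCtrl to fall by 10 points. At an adjusted p under 0.05 with no minimum size, 251 members were higher and 11 lower, where 8.1% and 1.41% of all windows were. On the CpGs outside CCGG 11 members were called higher, 9 of them among the 10. The count depended on single libraries: it was 17 without EB shβcat #1 replicate 1 and 6 without EB shCtrl replicate 1, when 1 member was called lower.

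The largest of these differences, 13.88 points (adjusted p = 7.3e-09), was at the start of Sox14, a transcription factor gene of the nervous system, at chr9:99776000-99776999. Sox14 stood at 4.93% and 8.25% in EB shCtrl, 19.6% and 21.6% in EB shβcat #1 and 4.88% and 5.76% in mESC shβcat #1. In EB shβcat #1 91.9% of its 37 shared CpGs were above 10%, and in EB shCtrl 27.0%. The start of Wdr86, a WD repeat gene, at chr5:24236000-24236999, read 6.34% and 9.47% in EB shCtrl and 18.2% and 21.4% in EB shβcat #1. Over the common CpGs the difference was 13.78 points (adjusted p = 1.9e-05). The start of 5730457N03Rik, annotated as noncoding, at chr6:52264000-52264999 read 9.80% and 9.24%, then 22.0% and 22.3% (12.48 points, adjusted p = 5.7e-08). Its window also overlaps a coding exon, and the nearest coding gene start is 954 bp from the window's centre.

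The start of Efnb3, an ephrin gene, at chr11:69373000-69373999, read 6.74% and 7.88% in EB shCtrl and 15.4% and 20.7% in EB shβcat #1 (12.21 points, adjusted p = 2.9e-07). An exon of Neurl1a, a neuralized ubiquitin ligase gene, at chr19:47327000-47327999, read 8.02% and 11.8%, then 21.5% and 21.1% (11.29 points, adjusted p = 2e-06). Differences in the other direction stayed under 10 points: EB shβcat #1 minus EB shCtrl was -8.03 points at Zfp467 (adjusted p = 0.00052), -6.87 at Tbx3 (adjusted p = 0.0082) and -6.83 at the window on chromosome 15 (adjusted p = 0.00018). These 3 were picked for being among the highest members in EB shCtrl, which by itself favours a lower value in the other group.

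**Figure D4:**
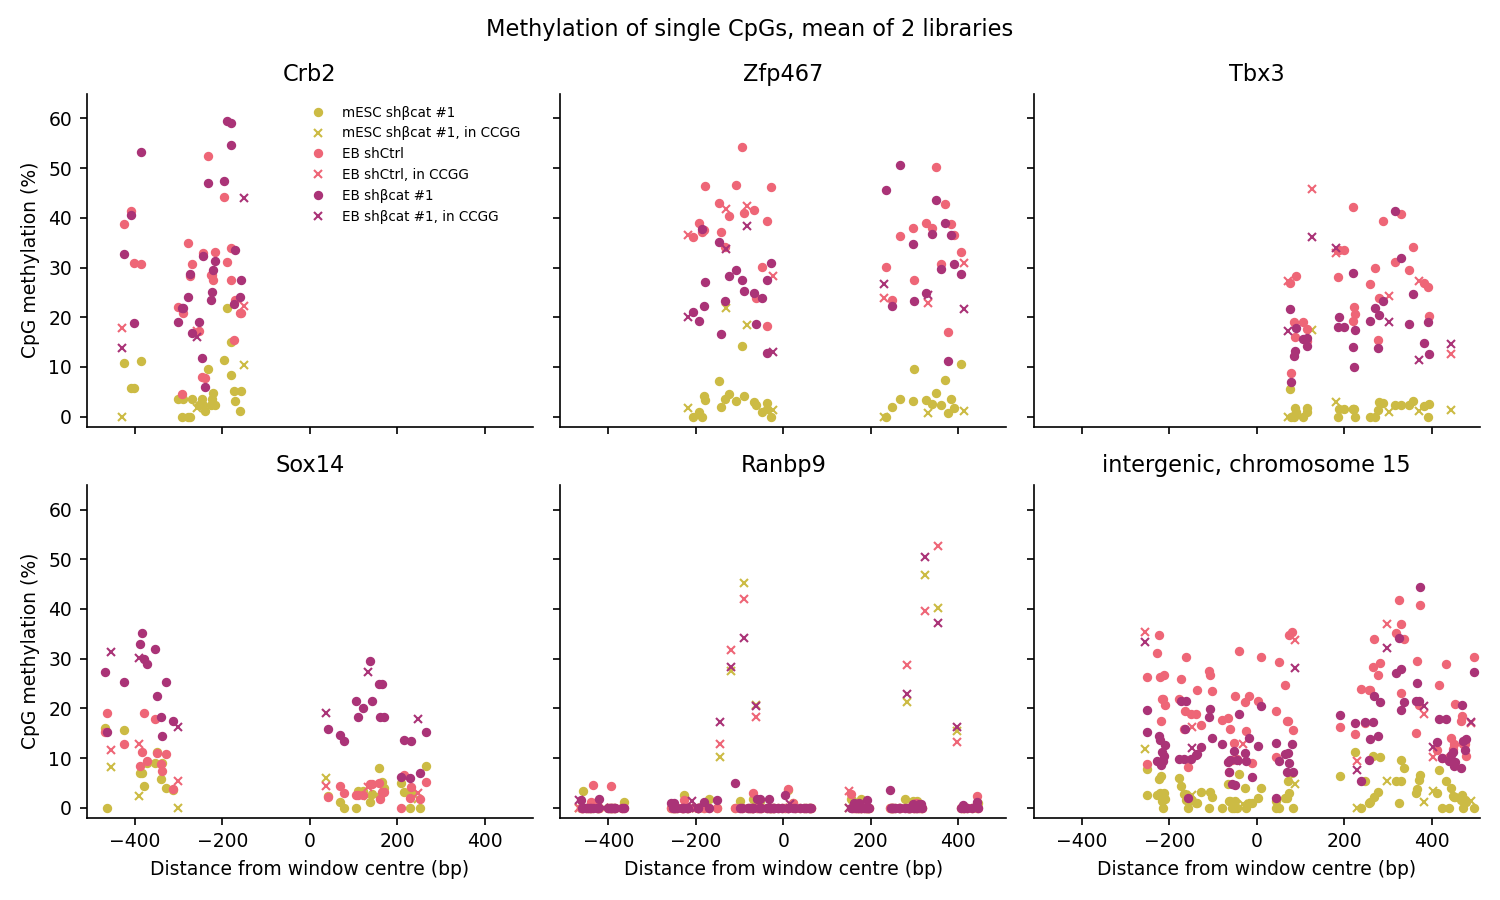
Methylation of single CpGs (y axis, percent, mean of 2 libraries) against the distance from the centre of the window in bp (x axis) for 6 windows, in mESC shβcat #1, EB shCtrl and EB shβcat #1; crosses are CpGs in a CCGG. In the 5 windows that gained methylation the EB shβcat #1 points are raised along the covered stretch, up to 59.4% at Crb2, and at Sox14 the EB shCtrl points mostly stay with the mESCs, while at Ranbp9 only CpGs in CCGG leave the baseline, in mESCs and EBs alike.

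Within the 191 windows above 10% in EB shβcat #1, few CpGs stayed at 0 in the median window, but only a minority were above 10%. The gaining windows drawn CpG by CpG were picked for high levels or large differences and do not stand for the 191. Over CpGs outside CCGG, a median of 32.6% of the CpGs of a window were above 10% in both EB shβcat #1 libraries and 2.82% were at 0 in both. These windows were also the less clean ones in the libraries that did not choose them. Their median level was 1.81% and 1.95% in YP-mESCs, against 0.309% and 0.327% for the other 5757 members. It was 0.782% and 0.851% in OP-mESCs, against 0.366% and 0.369%. It was 2.51% and 2.42% in mESC shβcat #1 without CpGs in CCGG, against 0.345% and 0.351%.

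Windows above 10% in EB shβcat #1 differed from the other members in position and sequence, as a description over windows and with no test. Members that held an annotated gene start (GENCODE M1) were 78.3% of all members, and 90 of 4655 (1.93%) were above 10% in both EB shβcat #1 libraries. Among members in an exon without a start it was 58 of 711 (8.16%), among intronic members 16 of 220 (7.27%) and among intergenic members 27 of 362 (7.46%). With CpGs in CCGG left out the shares were 1.05%, 4.78%, 5.0% and 6.35%. In EB shCtrl they were 0.344%, 2.11%, 1.36% and 1.66%. The median distance to the nearest coding gene start was 573 bp for the 191 windows and 227 bp for the other members.

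CpG number went the other way. Over all members the reference held 87.0 ± 24.1 CpGs a window (SD over windows) and an observed to expected CpG ratio of 0.829 ± 0.118, against 59.5 ± 27.3 and 0.663 ± 0.188 over the 20436 autosomal windows with at least 10 CpGs in both mESC shCtrl libraries. The 191 windows held 75.6 ± 20.2 CpGs at a ratio of 0.746 ± 0.123 and the other members 87.4 ± 24.1 at 0.832 ± 0.117, while GC content was nearly the same, 63.4% ± 4.6 and 64.5% ± 6.1. From the 1574 members with 37 to 69 CpGs to the 1487 with 103 to 183, the share above 10% in EB shβcat #1 fell from 5.4% to 1.61%, with 3.43% and 2.26% between. Outside CCGG it fell from 3.49% to 0.740%. In EB shCtrl the shares were 1.40%, 0.350%, 0.412% and 0.471% in the same order, with no fall over the last 3.

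**Figure D5:**
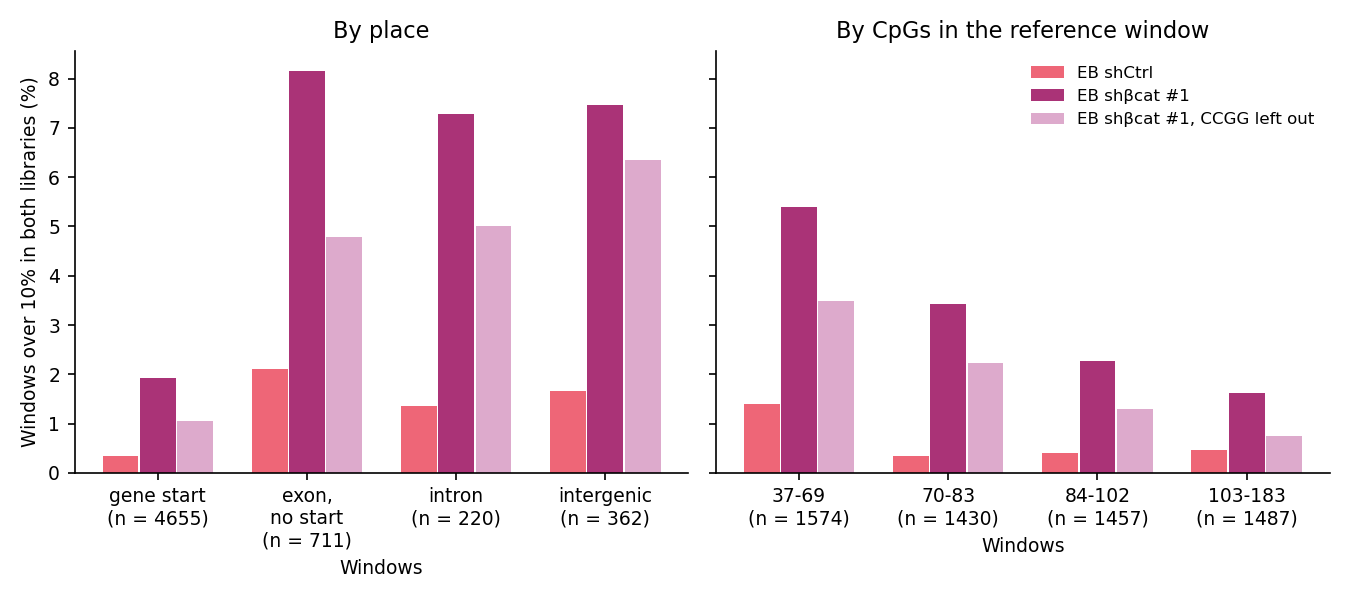
Share of windows above 10% in both libraries of EB shCtrl, of EB shβcat #1 and of EB shβcat #1 without CpGs in CCGG (y axis, percent), by place in the annotation (left) and by the number of CpGs in the reference window (right). Bars of gene starts are the lowest on the left, at 0.344%, 1.93% and 1.05%, and the EB shβcat #1 bars fall from 5.4% to 1.61% on the right.

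Neighbouring DNA differed as well. For members with an adjacent window of at least 3 CpGs in both mESC shCtrl libraries, the more methylated neighbour was above 50% for 19 of 147 of the windows above 10% in EB shβcat #1 (12.9%) and for 144 of 4478 other members (3.22%). The binding sequence of Sp1, GGGCGG on either strand, was present in 86.4% of the 191 windows, in 95.4% of the other members and in 79.3% of all windows with at least 10 CpGs. The E-box CACGTG was present in 16.2%, 20.5% and 19.5%, and GCATGCGC, a form of the NRF1 motif, in 4.19%, 6.62% and 5.08%. Such matches describe the letters and are not binding sites.

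Gene lists, chosen with earlier results of these data known, were read through members that hold the gene's start. Of 214 developmental transcription factors, 64 had a member, with 67 windows. Of these, 9 (13.4%) were above 10% in both EB shβcat #1 libraries, 8 without CpGs in CCGG, against 3.21% of all members and 1.93% of members at starts. Of the same windows 4 (5.97%) were called higher than in mESC shβcat #1, against 1.43% of all members and 0.709% of members at starts. In EB shCtrl 1 of the 67 (1.49%) was above 10%, against 0.344% of members at starts. The highest were Tbx3 and Sox14, described above. The lowest were Hoxd13, a homeobox gene of the limb, with 0.828% and 0.945% in EB shCtrl and 2.00% and 0.799% in EB shβcat #1, and Runx2, a factor of bone formation, at 0.540% and 0.398%, then 0.466% and 0.160%. The list thus held both windows with large gains and windows that stayed low in the EBs.

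Of 31 housekeeping windows, 0 were above 10% in either EB group and 0 were called higher than in mESC shβcat #1. Among all members at starts 0.344% and 1.93% were above 10% in EB shCtrl and EB shβcat #1 and 0.709% were called, so that 0 of 31 is near the overall share. Their highest, at Psmd1 (a proteasome subunit) and at Eef1b2 and Ndufs1, read 4.72% and 5.56% and 4.31% and 5.10% in EB shβcat #1, and their lowest, at Rps18 and at Aldoa, read 0.201% and 0.265% and 0.233% and 0.444%. The highest rested on CpGs in CCGG, since without them Psmd1 read 0.301% and 0.181% and the window of Eef1b2 and Ndufs1 0.422% and 0.308%. Of 20 pluripotency windows only Tbx3, which is also on this list, was above 10%, and it was so in both EB groups. That is 5% of the list, against 0.344% and 1.93% of all members at starts, and it rests on 1 window. Next came the start of Fgf4, a growth factor of the early embryo, which rose from 1.99% and 1.72% in mESC shβcat #1 to 8.98% and 10.1% in EB shβcat #1, a difference of 7.26 points (adjusted p = 1.5e-06) that is under the 10 points of a call. Sall4 and Stat3, regulators of self-renewal, stayed under 1.5% in all 4 EB libraries.

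Of 43 windows at Wnt pathway genes 1, Wnt2b, a ligand, was above 10% in EB shβcat #1, at 11.3% and 12.96%, and 0 did so without CpGs in CCGG. The share, 2.33%, is near the 1.93% of all members at starts. Wnt2b was at 5.96% and 7.37% in EB shCtrl and 4.21% and 3.66% in mESC shβcat #1, a difference between the shβcat #1 groups of 8.23 points (adjusted p = 1.1e-05). Notum, which removes the lipid of Wnt proteins, read 8.26% and 8.21% in EB shβcat #1, while Tle4, a corepressor, and Tcf7l2, a nuclear partner of β-catenin, stayed under 0.5% in the 4 EB libraries. Of 10 windows at imprinted genes 1 was above 10% in both EB groups, the start of Igf2r, a receptor that clears IGF2. Among all members at starts 0.344% in EB shCtrl and 1.93% in EB shβcat #1 were, and 10 windows are too few to set against these shares. Igf2r read 12.3% and 10.8% in EB shCtrl, 10.7% and 10.3% in EB shβcat #1 and 2.99% and 2.25% in mESC shβcat #1, with 7.67 points between the last 2 groups (adjusted p = 4.8e-05), and it was below 10% in all 4 EB libraries without CpGs in CCGG.

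Phactr2 read 7.02% and 4.18% in EB shCtrl and 6.26% and 6.22% in EB shβcat #1, and the lowest imprinted windows, Ppp1r9a and Zdbf2, were at 2.14% and 2.77% and at 2.42% and 3.05% in EB shβcat #1. Of 26 tumour suppressor windows 1 (3.85%) was above 10% in EB shβcat #1, against 1.93% of all members at starts, and the share rests on 1 window. It was the start of Wt1, a transcription factor of kidney and gonad, at 14.8% and 15.4% against 6.99% and 5.84% in EB shCtrl. This difference of 8.32 points was not past the test (adjusted p = 0.084). Rassf5 read 9.18% and 9.38% in EB shβcat #1, and Nf2 and Reck stayed under 0.5% in the 4 EB libraries. Germline and meiosis genes, whose islands are often methylated in somatic cells, were represented by 6 windows of 5 of 78 genes, with 0 above 10%, too few windows to set against a share of 1.93%. Their highest, Zbtb16 and Lhx8, read 4.37% and 6.36% and 7.13% and 5.57% in EB shβcat #1, and their lowest, Ybx2 and Boll, 2.45% and 3.56% and 3.59% and 3.11%. At Zbtb16 these values fell to 0.598% and 0.672% without CpGs in CCGG. The 0 above 10% holds only for the genes of this list. The start of Ccdc79, which is not on it, read 18.5% and 16.4% in EB shCtrl and 20.2% and 19.3% in EB shβcat #1.

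Few members differed between young and old passage. The test took in 4864 members, and in OP-mESCs 0 were called higher and 1 lower, against 0.0723% and 2.55% of 9683 windows, and 1 member was high enough in YP-mESCs to fall by 10 points. At an adjusted p under 0.05 with no minimum size 32 were higher and 167 lower, where 0.589% and 11.3% of all windows were. The 1 call was lost without OP-mESC replicate 2 and without YP-mESC replicate 1.

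Several members that were among the highest in YP-mESCs were lower in OP-mESCs by less than 10 points. An exon of Klhl35, a kelch-like gene, at chr7:106616000-106616999, read 5.99% and 8.20% in YP-mESCs and 2.02% and 1.39% in OP-mESCs, a difference of -5.39 points (adjusted p = 1.2e-07). The start of 8430419L09Rik at chr6:135148000-135148999 read 7.43% and 5.89%, then 0.882% and 0.375% (-8.52 points over the common CpGs, adjusted p = 7.7e-17). An intergenic window at chr12:18142000-18142999 read 5.56% and 10.002%, then 0.910% and 1.28%. These were picked for being high in YP-mESCs, which by itself favours a fall.

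The highest members in OP-mESCs, by the lower library, all stayed under 5%. They were the starts of Vgf, a neuropeptide precursor, with 4.79% and 3.79%, Hsbp1, with 3.37% and 3.55%, and Jakmip1, with 2.86% and 4.21%, and exons of Gsc2, a homeobox gene, with 3.15% and 4.02%, and Spnb4, a spectrin, with 3.34% and 2.90%. Jakmip1 was lower than in YP-mESCs over the common CpGs (-4.13 points, adjusted p = 0.01), and the other 4 did not pass the test.

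The S33Y clones were compared with YP-mESCs, and all 3 comparisons share the 2 YP-mESC libraries. In OP-S33Y #1, 0 of 5624 members were called in either direction, against 0.896% higher and 0.779% lower of 14511 windows, with 13 higher and 94 lower at any size (2.1% and 3.83% of all windows). At an unadjusted p under 0.05 the count past 10 points was also 0 in each direction. In OP-S33Y #2, 1 of 5645 members was called higher and 0 lower, against 0.415% and 1.68% of 14708 windows, with 117 higher and 81 lower at any size (2.92% and 4.96% of all windows). The call was the start of Creb3l1, a membrane-bound transcription factor of the endoplasmic reticulum, at chr2:91864000-91864999.

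Creb3l1 read 9.37% and 8.81% in OP-S33Y #2, 0.653% and 1.05% in YP-mESCs and 1.07% and 0.165% in OP-S33Y #1, and over the common CpGs it differed by 10.53 points from YP-mESCs (adjusted p = 1e-27). The call was lost without OP-S33Y #2 replicate 1 and without YP-mESC replicate 2. Its level in mESC shβcat #1 was 4.40% and 5.26%, and 0.272% and 0.408% without CpGs in CCGG. The next highest member of that clone, the start of Cyth3, an exchange factor for ARF proteins, at chr5:144383000-144383999, was at 6.76% and 7.02%, against 1.04% and 0.601% in YP-mESCs (2.72 points over the common CpGs, adjusted p = 4.2e-09). An exon of Dlx2, a homeobox gene of the forebrain, read 6.12% and 6.77% in the clone and 5.06% and 4.80% in YP-mESCs, and the start of Ccdc79 and an intergenic window at chr17:36368000-36368999 read 5.50% and 6.34%, and 7.96% and 5.47%. Reads on the CpGs of the window on chromosome 17 numbered 9149 to 33445 in a library, against 618 to 1500 at Ccdc79. Whether more than 1 place in the genome is read there was not tested.

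In OP-S33Y #1 the start of Gmds, which makes the precursor of GDP-fucose, at chr13:32430000-32430999, stood apart from the other mESCs without an shRNA, at 5.67% and 5.75% against 0.701% to 1.82% in the 5 other libraries that covered it. It was not tested, because YP-mESC replicate 2 lacks chromosome 13. The start of Grip1, a scaffold of glutamate receptors, at chr10:118891000-118891999, was at 8.36% and 7.11% in OP-S33Y #1. It differed widely between libraries of 1 group, with 6.33% and 0.399% in YP-mESCs, 2.74% and 10.6% in mESC shβcat #1 and 4.03% and 8.13% in EB shCtrl.

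mESC shβcat #1 was not compared with mESC shCtrl, since that control chose the members. Among its highest members were the start of Galnt10, a glycosyltransferase, at chr11:57458000-57458999, with 6.72% and 8.40%, and an exon of Kcng3, a potassium channel subunit, at chr17:84030000-84030999, with 6.51% and 6.61%. An intron of Usp10, a deubiquitinase, shared with the annotated Gm20388, at chr8:122435000-122435999, read 6.35% and 7.32%, but 0.376% and 0.549% without CpGs in CCGG. An intergenic window at chr7:120098000-120098999 read 6.34% and 6.34%.

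The windows with the most CpGs covered were the starts of Ranbp9, Zfp777, Nr2f6 and Cecr2 and an intergenic window at chr15:85501000-85501999, with 149 to 183 CpGs in the reference. Their highest level in any library was 3.99%, at Nr2f6 in EB shCtrl. Without CpGs in CCGG the same library read 0.280% there. The highest level of the 5 windows was then 1.86%, at the intergenic window in EB shβcat #1. At the threshold of the rule, the members just inside 5%, at the starts of Aff1, Aldh1a3 and Yap1, had 5.00%, 4.99% and 4.99% in their higher mESC shCtrl library, and the windows just outside, at Pus7, Bmp1 and in an intron of Baz2a, had 5.00% each. In EB shβcat #1 the first 3 read 3.89% and 6.94%, 9.76% and 12.6%, and 3.07% and 5.53%, and the others 5.76% and 7.29%, 4.16% and 5.404%, and 3.61% and 6.15%. Without CpGs in CCGG, EB shβcat #1 read 1.02% and 0.990% at Aff1, 7.77% and 10.4% at Aldh1a3, 0.737% and 0.773% at Yap1 and 0.164% and 0.419% at Pus7.

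The members were set beside 2 other kinds of window, with no test, because mESC shCtrl defines all 3. The 5216 less CpG-dense unmethylated windows, with 10 to 29 CpGs in each mESC shCtrl library and 5% or less in both, were above 10% in both EB shβcat #1 libraries in 448 of 4682 cases (9.57%), against 3.21% of the members, and 335 of 4611 (7.27%) were called higher than in mESC shβcat #1, against 1.43%. The 1284 CpG-dense windows over 5% in at least 1 mESC shCtrl library were above 10% in 686 cases (53.4%), and 381 (29.7%) were called higher. Of these 1284, 316 (24.6%) were already above 10% in both mESC shβcat #1 libraries, against 0 members. On CpGs outside CCGG the shares above 10% in EB shβcat #1 were 234 of 3688 (6.34%) for the less dense windows and 568 of 1284 (44.2%) for the others, against 1.97% of the members.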

How the data were processed

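RRBS libraries had been made with a NuGEN Ovation kit. Per the labels and the submitters' processing notes, the authors used CASAVA 1.8.2, Trim Galore 0.2.8 and Bismark 0.7.9 with mm9. For each cytosine of a CpG they deposited a count of covering reads and the percent methylated among these, not normalized and not pooled. Each listed cytosine has at least 10 reads, so a CpG's percent moves in steps of up to 10 points. A library had 18919219 to 40519010 reads on 413282 to 1152971 CpGs.

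Strands were summed, and a window is the position divided by 1000, rounded down. Windows were tested with a logistic model of methylated and unmethylated reads over common CpGs (at least 10 in all 4 libraries), with an overdispersion moderated towards its trend on the level by limma 3.58.1 (R 4.3.3), floored at 1, an F test and Benjamini-Hochberg adjustment. The F test weights CpGs by reads and the difference in points does not. Differences in points are over the common CpGs and need not equal the gap between the printed levels. Reads over several CpGs are counted at every one of them. For 1 value, the smallest p of an exact permutation with 2 libraries in each group is 0.33. On simulated reads for EB shβcat #1 against mESC shβcat #1 (18762 windows), 90 of 100 windows raised by 15 points and 99 of 100 raised by 25 points were called, with 1 false call. All libraries of an unchanged window were given the same level there, with 1 fixed overdispersion for all windows. The simulation checks the code and does not measure the error rate with real libraries. Python 3.11.15, numpy 2.4.6, pandas 2.3.3, scipy 1.17.1, pysam 0.24.0 and matplotlib 3.10.9 were used. All 1320290 CpGs used, on autosomes and X, are CG in the mm9 reference. Genes are those of GENCODE M1.

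The members and gene lists were chosen with earlier results of these data known. Windows named in the text are the 5 highest per group (by the lower library), the 5 largest called differences per comparison and direction, the 2 highest and 2 lowest of each gene list in EBs, the 5 with the most CpGs, and 3 on each side of the 5% limit. Some windows that this rule picks are not reported here. Gene starts were found in a window for 62 of 78 germline genes, 199 of 214 developmental factors, 91 of 96 housekeeping, 36 of 48 pluripotency, 80 of 86 Wnt pathway, 45 of 54 imprinted and 53 of 55 tumour suppressor genes. Alternatives were other minimums of reads and CpGs, a coverage cap at the 99.9th percentile, other limits of the rule, read-weighted levels, each library's own CpGs, other sizes of call, 1 shared overdispersion, a block for replicate number, and leaving out libraries one at a time; leaving out CpGs in CCGG was added after seeing the data. The comparison of mESC shβcat #1 or EB shCtrl with mESC shCtrl was left out because mESC shCtrl chose the members.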

Additional observations from a re-analysis of the deposited data

Results flagged for a closer look

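Chromosome X was outside the rule. It held 25 windows that met the same limits in mESC shCtrl. Of these, 1 was above 10% in both EB shβcat #1 libraries, where 0 were in mESC shβcat #1, in EB shCtrl or in the 4 groups without an shRNA. A count of 1 in 25 is too small to set apart from the 3.21% of the autosomal members in EB shβcat #1. That window lies in Fgf16, a fibroblast growth factor gene, at chrX:102960000-102960999. The levels there were 10.7% and 12.4% in EB shβcat #1, 5.29% and 3.62% in EB shCtrl and 0.969% and 1.31% in mESC shβcat #1. Without CpGs in CCGG it read 10.7% and 12.6% in EB shβcat #1. The next 2, in Mid1 and Gpr50, read 8.93% and 7.74%, and 7.22% and 8.52%, in EB shβcat #1.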

How the results depend on the processing

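Over 17 counts and 254 alternatives, 193 counts stayed within 1.5 times the reported one and 61 moved further. None turned from higher to lower. Most of the 17 counts were 0 as reported, and a 0 that stayed 0 is among the 193. The tally therefore says little about the counts above 0, which are followed below. Of the members above 10% in both libraries, EB shCtrl had 40 and EB shβcat #1 had 191. These became 16 and 86 with at least 20 reads per CpG, 111 and 374 with 20 or more CpGs per member, 18 and 101 with 40 or more, 6 and 19 with a limit of 2% in mESC shCtrl, 269 and 538 with a limit of 10%, 3 and 3 above 25%, and 22 and 117 without CpGs in CCGG. In YP-mESCs, where 0 was reported, 4 were found with 20 or more CpGs per member. With the limit of 10% there were 7 in YP-mESCs, 1 in OP-mESCs, 2 in OP-S33Y #1, 1 in OP-S33Y #2 and 22 in mESC shβcat #1.

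The 85 members called higher in EB shβcat #1 than in mESC shβcat #1 became 32 with 20 reads per CpG, 206 with 20 CpGs per member, 37 with 40, 16 with the 2% limit, 230 with the 10% limit and 0 past 25 points. The 10 called higher than in EB shCtrl became 2, 33, 1, 0, 34 and 0 under the same settings and 6 with read-weighted levels, and 1 and 2 were called lower with 20 CpGs per member and with the 10% limit. The 1 member called lower in OP-mESCs became 0 with 20 reads per CpG, 40 CpGs per member, the 2% limit, 20 common CpGs, each library's own CpGs or 25 points, 2 with 20 CpGs per member and 5 with the 10% limit, which also gave 1 called higher. The 1 called higher in OP-S33Y #2 became 0 with 20 reads per CpG, read-weighted levels, 40 CpGs per member, the 2% limit, own CpGs or 25 points. In OP-S33Y #1, 1 was called lower with 20 CpGs per member and 1 with the 10% limit. The limits of the rule change the number of members, from 5948 to 8631 with 20 CpGs, 3887 with 40, 2352 at 2%, 6880 at 10% and 3159 with 20 reads per CpG.

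In the counts of members above 10%, leaving out 1 library means that only the other must pass, so such counts can stay or rise but not fall. Leaving out each library in turn gave 0 to 2 members above 10% in YP-mESCs, 0 to 1 in mESC shβcat #1, 55 to 57 in EB shCtrl, 224 to 242 in EB shβcat #1 and 0 to 0 in the 3 other groups. It gave 82 to 88 called higher in EB shβcat #1 than in mESC shβcat #1, 6 to 17 higher and 0 to 1 lower than in EB shCtrl, 0 to 1 lower in OP-mESCs and 0 to 1 higher in OP-S33Y #2. A lone library is then assumed to vary like the other windows' libraries. Same-numbered libraries deviated together with r between -0.0434 and 0.0799 over all windows and between -0.0520 and 0.149 over the members (the highest for EB shβcat #1 against EB shCtrl), and no label ties the numbers, so they were not taken to pair samples. With the replicate number as a block, the counts were 85, 10, 1 lower, 1 higher and 0, as without it. A CpG with 10 reads cannot show a level under 10% other than 0, and 1084 members were not tested in OP-mESCs against YP-mESCs, through thin coverage or the missing chromosome 13.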

Other observations

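Some members read far apart in the 2 libraries of a group. The start of D17H6S56E-5 and Vars at chr17:35137000-35137999 was at 0.343% and 9.10% in YP-mESCs. The start of Rps19, a ribosomal protein gene, at chr7:25669000-25669999 was at 5.18% and 0.111% in OP-S33Y #1, and an intron of Gm14207 at chr2:119148000-119148999 was at 7.26% and 15.4% in EB shβcat #1. These are the widest gaps in their groups, and no test was made of them.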
